A study of Homo sapiens with 12 samples.

Results

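The subject of this account is the interaction of olaparib with AP-1 knockdown in BT549, a human triple-negative breast cancer line: the olaparib response (olaparib minus DMSO, log2) in cells with the knockdown minus the same response in control cells. A gene entered when at least 3 libraries held more than 1 CPM (counts scaled to an equal library total), which 12122 of the 27046 listed genes did. At the edge of that filter, the third highest library of NRROS held 1.004 CPM, just inside, and that of LOC100288069 held 0.997 CPM, just outside. All 12 of the 12 libraries were used, 3 in each of 4 groups. The groups were cells given siRNA pools against FOSL1 and c-Jun with olaparib, the same siRNA with DMSO, a non-targeting siRNA pool with olaparib, and the non-targeting pool with DMSO. Drug or solvent was given for 48 h, per the labels. In what follows, knockdown cells carried the FOSL1 and c-Jun siRNA and control cells the non-targeting siRNA. BT549 is 1 cell line, the siRNAs were transient pools, and the olaparib dose was not given in the sources used here. Nothing in the labels says that the 3 libraries of a group came from separate cultures, so p-values measure the spread between these libraries, which may be technical.

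AP-1 is a dimer of JUN and FOS family proteins that binds a DNA motif, searched for here as TGANTCA, where N is any base. FRA-1, the product of FOSL1, is a partner of JUN in mesenchymal breast cancer cells. AP-1 is induced by growth factor and stress kinases, and many genes that it switches on are matrix, cytoskeletal and signalling genes. Olaparib blocks PARP1 and PARP2 and holds them on DNA, which leaves damage that is repaired by homologous recombination during replication. An interaction asks whether the cells answered the drug differently once FOSL1 and JUN had been lowered.

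Library totals ran from 13763179 to 39715900 counts. The line's mesenchymal markers were high, with VIM at 2385 CPM or more in every library. Of 12 luminal breast markers 6 stayed below 1 CPM in every library, among them ESR1, at or below 0.0696 CPM, and PGR, at 0. Other luminal markers were expressed: ERBB2 held 96.6 to 130 CPM, XBP1 62.6 to 132, GATA3 22.2 to 38.2 and KRT18 16.8 to 35.7. Of 8 blood cell markers 6 stayed below 1 CPM in every library, and of 6 endothelial markers 5 did. The summed blood cell markers, led by CD68, a lysosomal protein, lay at 22.5 to 26.2 CPM in knockdown cells under olaparib, 18.5 to 23.0 CPM in knockdown cells under DMSO, 53.2 to 61.5 CPM in control cells under olaparib and 38.9 to 42.6 CPM in control cells under DMSO, while PTPRC, which marks nearly all white blood cells, did not exceed 0.472 CPM.

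The olaparib response differed between the arms in 690 of 12122 genes (5.69% of those tested) at an adjusted p below 0.05 in edgeR's quasi-likelihood test. The response was higher in knockdown cells in 344 genes (2.84%) and lower in 346 (2.85%). At an unadjusted p below 0.05, 2725 genes differed. Differences were small: their median size was 0.42 on the log2 scale, that is, a 1.34-fold ratio between the arms' responses, and 26 genes reached 1 log2 unit, 3 of them higher and 23 lower in knockdown cells. The 95% interval of the interaction had a median half-width of 0.243, and in 7488 genes (61.8%) the whole interval lay within 0.5 of zero. Olaparib itself changed 5822 genes (48%) in knockdown cells and 5676 genes (46.8%) in control cells. Of the genes without an interaction call, 3583 changed in both arms with the same sign.

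The 690 genes were sorted by which arm's response was called. A lost response, called in control cells and not in knockdown cells, was found for 203 genes, and a gained one, called in knockdown cells alone, for 206. Responses called in both arms with the same sign were weakened in knockdown cells for 146 genes and strengthened for 82. In 53 genes the response was called in both arms with opposite signs. No gene was called for the interaction and in neither arm. Among weakened genes the median size of the response was 0.40 log2 units in knockdown cells and 0.92 in control cells, and the median gene kept 46.6% of its log2 response. Among strengthened genes the median size was 0.76 in knockdown cells and 0.32 in control cells. In the weakened class 63 of 146 genes changed at least 2-fold in control cells, against 10 of the 203 lost genes. The sorting itself favours such a difference, since a weakened gene had to be called in both arms with the larger response in control cells. Another 5192 genes responded in control cells without an interaction call and are not part of this comparison. Rising responses made up 106 of the 146 weakened genes and 101 of the 203 lost genes. Over all tested genes, the olaparib response in control cells was called as a rise in 2866 and as a fall in 2810. Rises and falls in the lost class were thus about as even as over all genes. Lost and gained are labels set by a threshold, so a gene in either class can still have a response of some size in the other arm.

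**Figure D1:**
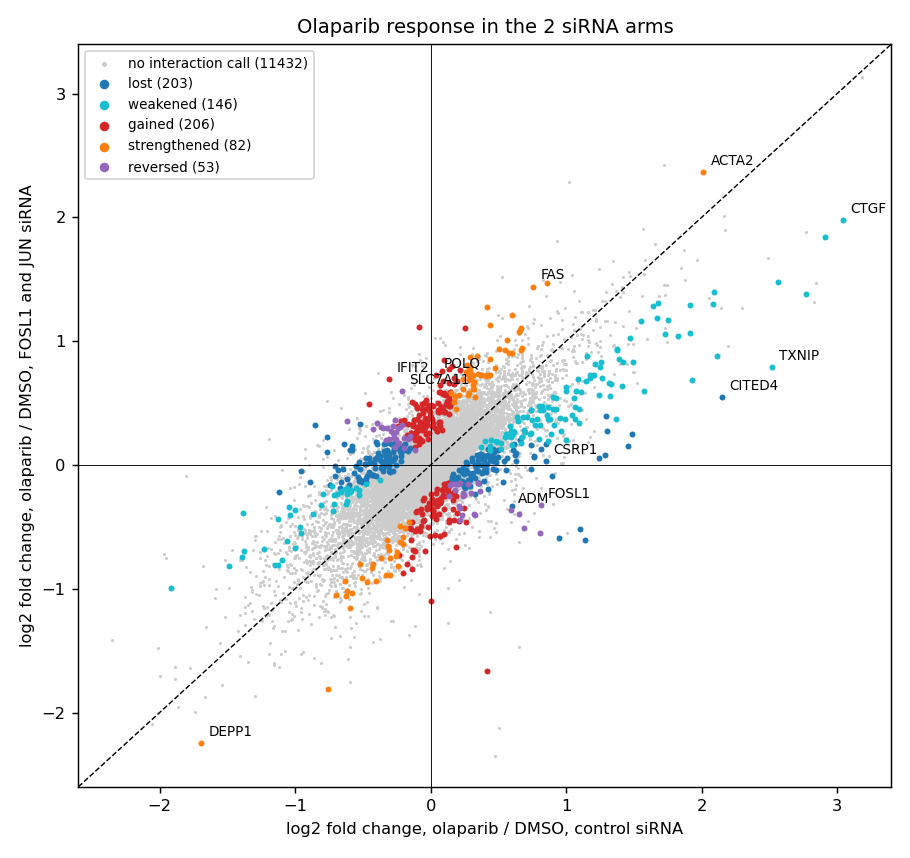
The log2 fold change for olaparib over DMSO in knockdown cells (vertical) is plotted against that in control cells (horizontal) for the tested genes, with the 690 called genes coloured by class and the dashed line marking equal responses. Weakened genes such as CTGF and TXNIP lie far to the right and below the line, strengthened genes such as FAS above it, and reversed genes such as FOSL1, ADM and SLC7A11 in the quadrants of opposite sign; 7 genes lie outside the axes.

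Both siRNA targets were among the called genes. FOSL1 had 21.7, 22.3 and 19.2 CPM in knockdown cells under olaparib and 29, 27.5 and 23.8 CPM in knockdown cells under DMSO, against 124, 136 and 117 CPM in control cells under olaparib and 74.9, 71.4 and 68.5 CPM in control cells under DMSO. Knockdown libraries were thus below every control library, and olaparib libraries lay below DMSO libraries in knockdown cells and above them in control cells. The FOSL1 interaction was -1.14 (SE 0.112, adjusted p = 1.89e-05). JUN had 49.8, 40.7 and 35.9 CPM in knockdown cells under olaparib and 56.2, 62.3 and 68.8 CPM in knockdown cells under DMSO, against 157, 172 and 161 CPM in control cells under olaparib and 161, 174 and 155 CPM in control cells under DMSO. In control cells the JUN libraries of both treatments overlapped, and in knockdown cells all olaparib libraries were lower. Its interaction was -0.57 (SE 0.137, adjusted p = 0.0267), and the adjusted p was 0.0991 once each library's trend with GC content and transcript length was offset. These values came from cells in which both mRNAs are siRNA targets.

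Among weakened rises, the largest interaction belonged to TXNIP, whose protein inhibits thioredoxin and restrains glucose uptake. TXNIP had 33.9, 34.1 and 38.4 CPM in knockdown cells under olaparib and 20.3, 21.5 and 19.6 CPM in knockdown cells under DMSO, against 56.0, 63.8 and 60.2 CPM in control cells under olaparib and 9.12, 11.1 and 11.1 CPM in control cells under DMSO. Olaparib raised it 1.73-fold in knockdown cells and 5.73-fold in control cells (interaction -1.73, SE 0.118, adjusted p = 1.13e-07). The knockdown arm started higher in DMSO and ended lower under olaparib. CTGF, a matricellular growth factor and a classical target of YAP and TEAD, had 493, 480 and 537 CPM in knockdown cells under olaparib and 123, 118 and 141 CPM in knockdown cells under DMSO, against 1120, 1079 and 1196 CPM in control cells under olaparib and 135, 137 and 140 CPM in control cells under DMSO. Its rise was 3.94-fold in knockdown cells and 8.23-fold in control cells (interaction -1.06, SE 0.0867, adjusted p = 1.6e-06). DMSO levels of CTGF overlapped between the arms, so the gap opened under the drug. PPP1R3B, a subunit that guides protein phosphatase to glycogen, rose 2.78-fold in knockdown cells and 5.92-fold in control cells (interaction -1.09, SE 0.175, adjusted p = 0.00152).

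DUSP1, a phosphatase that switches off MAP kinases and a gene that stress induces early, had 33.8, 30.1 and 28.8 CPM in knockdown cells under olaparib and 23.0, 24.3 and 24.2 CPM in knockdown cells under DMSO, against 78.5, 72.1 and 69.8 CPM in control cells under olaparib and 29.7, 25.9 and 29.8 CPM in control cells under DMSO. It rose 1.29-fold in knockdown cells and 2.58-fold in control cells (interaction -0.999, SE 0.107, adjusted p = 4.02e-05). DUSP1 led the MAPK feedback genes, phosphatases and Sprouty proteins that damp the kinase cascade upstream of AP-1. Of 23 tested members 8 were called, all 8 lower in knockdown cells and all 8 weakened rises, beside 5.69% of all tested genes called. The list's median interaction was -0.36, beside -0.00406 over all tested genes. DUSP6, a phosphatase of ERK, rose 1.62-fold in knockdown cells and 2.41-fold in control cells, with an interaction of -0.57 (adjusted p = 0.00375). SPRY4, a Sprouty inhibitor of receptor signalling, had an interaction of -0.45 and SPRY1 one of -0.41. Leaving out single libraries left 7 to 9 members called, and the GC and length offsets left 10 lower and 1 higher, with a median of -0.28.

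The DUSP1 promoter carries a copy of TGACGTCA, the motif bound by CREB and ATF proteins and by JUN dimers with ATF members. It is printed to show where that motif lies in the window from 250 bases before to 50 after the start (RefSeq, GRCh38.p14, chr5:172771146-172771445, minus strand), 125 bases before the start, with the motif in capitals.
DUSP1: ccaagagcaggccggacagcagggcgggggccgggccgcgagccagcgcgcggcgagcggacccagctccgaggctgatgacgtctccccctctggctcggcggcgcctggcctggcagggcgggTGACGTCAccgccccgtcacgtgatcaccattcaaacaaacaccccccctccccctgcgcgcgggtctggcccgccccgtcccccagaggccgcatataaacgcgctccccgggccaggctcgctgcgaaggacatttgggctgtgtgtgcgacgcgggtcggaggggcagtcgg
Of the 12122 tested genes 9856 had such a window. On either strand, TGACGTCA stood in 3.64% of the 110 windows of weakened genes, 4.58% of the 153 of lost genes, 5.26% of the 171 of gained genes, 2.74% of the 73 of strengthened genes and 8.82% (3 windows) of the 34 of reversed genes. It stood in 3.46% of the windows of all tested genes and 1.98% of the 27305 windows in the table. The search pattern TGANTCA allows any base in the middle, so a match to it need not be a site that AP-1 binds. It stood in 3.64% of weakened, 3.92% of lost, 3.51% of gained, 4.11% of strengthened and 0 of the 34 reversed windows. Its share was 4.15% in the windows of all tested genes and 7.76% in all windows. The classes' shares of TGANTCA thus lay near or below that of all tested genes in this window. A match to either motif is not a match to the other, since their letters differ in length and order.

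Some rises of cytoskeletal and matrix genes were lost or weakened, although of 26 collagens and laminins only 1, COL1A1, was called, and other such genes, described further on, differed the other way or had falls that grew. CSRP1, a LIM protein that binds the actin cytoskeleton, had 42.5, 40.8 and 41.1 CPM in knockdown cells under olaparib and 40.4, 41.1 and 40.3 CPM in knockdown cells under DMSO, against 73.0, 82.4 and 76.6 CPM in control cells under olaparib and 42.4, 43.0 and 43.4 CPM in control cells under DMSO. The control olaparib libraries stood alone and the other 9 libraries lay together. The fold was 1.02 in knockdown cells and 1.8 in control cells (interaction -0.82, SE 0.0823, adjusted p = 1.89e-05). VIM, the intermediate filament protein of mesenchymal cells, had 2760, 2509 and 2438 CPM in knockdown cells under olaparib and 2385, 2397 and 2711 CPM in knockdown cells under DMSO, against 4070, 4150 and 4062 CPM in control cells under olaparib and 3036, 3057 and 2910 CPM in control cells under DMSO. Its libraries overlapped between treatments in knockdown cells and separated in control cells (interaction -0.41, SE 0.0742, adjusted p = 0.00406). COL1A1, a chain of type I collagen, had a fold of 1.04 in knockdown cells and 1.7 in control cells, with an interaction of -0.70 (adjusted p = 0.00113). FN1, the matrix glycoprotein fibronectin, rose 1.32-fold in knockdown cells and 2.06-fold in control cells, with an interaction of -0.64 (adjusted p = 0.0303). That call was lost when any olaparib library of either arm or control DMSO library 2 was left out.

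Over all tested genes 5.69% were called, and 2.85% were lower in knockdown cells. Of 26 genes described as AP-1 or FRA-1 targets 5 were called, all lower, and 8 were with the offsets, all lower. The median interaction of these targets was only -0.04, and 12 of the 26 lay above zero. Of 21 mesenchymal genes and EMT factors 3 were called, all lower in knockdown cells, and the median was -0.12. With the offsets 7 were called, all lower. YAP/TEAD targets, genes of cell spreading and growth, gave 5 lower and 2 higher calls among 25 members, with a median of -0.16. Besides CTGF, the called members with the largest interactions were NUAK2, a kinase (-0.75), LATS2, a kinase that restrains YAP (-0.63), and RBMS3, an RNA-binding protein (-0.54). Of 12 ephrins and Eph receptors, which signal between touching cells, 3 were called, all lower in knockdown cells, among them EFNB2 at -0.69. That count was 1 with the offsets and 1 to 5 when single libraries were left out. Of 19 metalloproteinases, TIMPs and plasminogen activators 5 were lower and 2 higher, and leaving out single libraries moved the lower calls between 1 and 5. The fewest came without control olaparib library 2.

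GADD45A and CITED4 show what the threshold does to the lost class. GADD45A, induced by p53 and by stress, had 38.2, 31.1 and 25.4 CPM in knockdown cells under olaparib and 27.2, 24.1 and 27.2 CPM in knockdown cells under DMSO, against 76.2, 71.5 and 69.9 CPM in control cells under olaparib and 27.9, 31.9 and 28.1 CPM in control cells under DMSO. Its fold was 1.21 in knockdown cells (adjusted p = 0.0549) and 2.47 in control cells, and the interaction was -1.03 (SE 0.154, adjusted p = 0.0017). CITED4, a partner of the coactivators CBP and p300, had 15.3, 9.61 and 7.75 CPM in knockdown cells under olaparib and 6.28, 6.21 and 9.03 CPM in knockdown cells under DMSO, against 33.6, 38.4 and 31.9 CPM in control cells under olaparib and 7.45, 7.52 and 8.32 CPM in control cells under DMSO. The 3 knockdown olaparib libraries of CITED4 were spread over a wide range and overlapped those under DMSO, so its fold of 1.46 in knockdown cells was not called (adjusted p = 0.0664). The interaction was -1.61 (SE 0.312, adjusted p = 0.0152). Over the p53 targets as a list, 2 were higher and 3 lower among 27 members, beside 5.69% of all tested genes called. The list's median was -0.02.

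**Figure D2:**
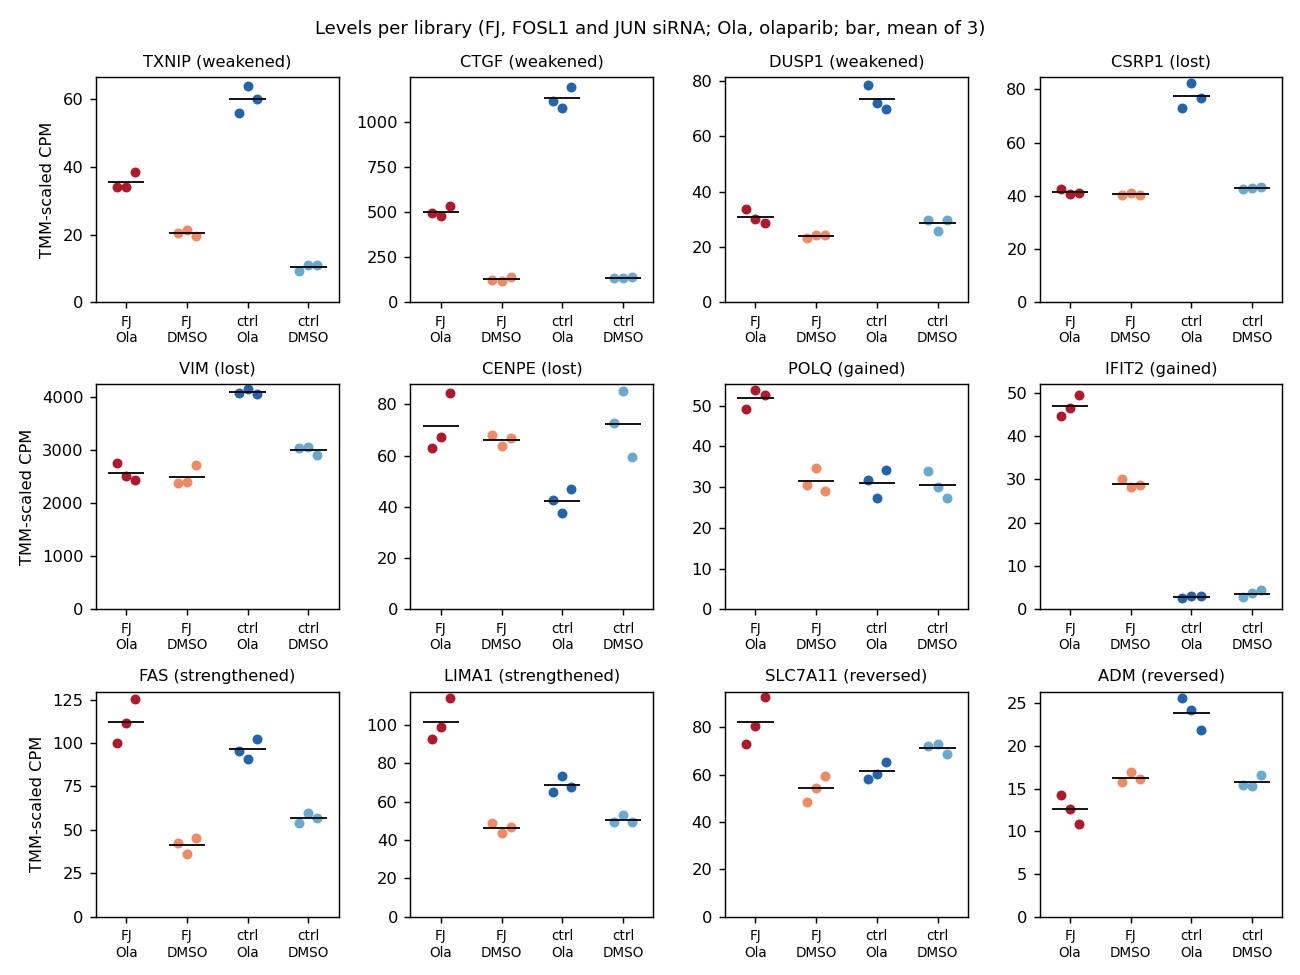
Each point is 1 library's TMM-scaled CPM for 12 of the named genes, with bars at the mean of the 3 libraries of a group and groups ordered as knockdown olaparib, knockdown DMSO, control olaparib and control DMSO. CTGF and DUSP1 reach their highest values in control olaparib libraries, IFIT2 and POLQ in knockdown olaparib libraries, and SLC7A11 and ADM move in opposite directions in the arms.

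Some genes of DNA repair and division had a higher olaparib response in knockdown cells, though most members of each list were not called. Of 39 homologous recombination genes 7 were called, all higher, beside 5.69% of all tested genes called. The list's median interaction was 0.23. Leaving out single libraries left 5 to 12 called, 5 without control olaparib library 1 and 12 without knockdown olaparib library 1. With the GC and length offsets 8 were higher and 1 lower, and the median was 0.17. The median GC content was 42.9% in this list, 43.8% and 44.1% in the Fanconi and G2/M lists below, and 49.6% overall in tested genes. Of the 2393 genes with the lowest GC content, 175 were called higher and 9 lower, so low-GC lists tend to higher calls. Of 13 end joining genes 2 were called higher, with a median of -0.001. POLQ, the polymerase of a backup pathway of end joining, had 49.3, 53.9 and 52.7 CPM in knockdown cells under olaparib and 30.5, 34.8 and 29.2 CPM in knockdown cells under DMSO, against 31.9, 27.4 and 34.2 CPM in control cells under olaparib and 34.0, 30.0 and 27.3 CPM in control cells under DMSO. Only the knockdown olaparib libraries of POLQ stood apart, and the interaction was 0.68 (SE 0.128, adjusted p = 0.00499). BRCA1, which starts homologous recombination, had 45.1, 47.0 and 51.8 CPM in knockdown cells under olaparib and 37.8, 41.4 and 36.3 CPM in knockdown cells under DMSO, against 35.8, 33.1 and 36.1 CPM in control cells under olaparib and 43.9, 42.0 and 41.6 CPM in control cells under DMSO. BRCA1 rose in knockdown cells and fell in control cells (interaction 0.59, SE 0.0979, adjusted p = 0.00189). EME1, a subunit of a nuclease that cuts recombination intermediates, rose 1.69-fold in knockdown cells and had a fold of 1.06 in control cells. MND1, which helps strand exchange, rose 2.31-fold in knockdown cells and 1.52-fold in control cells.

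Of 30 Fanconi anaemia and checkpoint genes, which unhook DNA crosslinks and stop the cycle, 6 were called, all higher in knockdown cells, with a median of 0.18. Without knockdown DMSO library 2, control olaparib library 1 or 2, or control DMSO library 2, the count was 2. With the offsets 5 were higher and 1 lower, and the median was 0.11. FANCD2, the protein that is ubiquitinated at stalled forks, had 58.3, 55.2 and 59.6 CPM in knockdown cells under olaparib and 39.3, 37.2 and 38.4 CPM in knockdown cells under DMSO, against 49.0, 41.1 and 46.4 CPM in control cells under olaparib and 44.2, 45 and 41.9 CPM in control cells under DMSO. The control libraries of FANCD2 overlapped and the knockdown libraries did not (interaction 0.53, SE 0.0947, adjusted p = 0.00355). FANCL, the ligase that modifies FANCD2, fell in both arms and fell less in knockdown cells, to a fold of 0.619 there against 0.385 in control cells. Of 50 DNA replication and S phase genes 8 were called, all higher, with a median of 0.14. That count rested on single libraries: it was 1 without knockdown olaparib library 2 or control olaparib library 2, 3 without control olaparib library 1 or 3, 4 without control DMSO library 1 or 2, and 5 without knockdown DMSO library 2 or 3. With the offsets 6 replication genes were called, all higher, and their median was 0.08. PARP family and base excision repair genes gave 2 calls among 34 members, PARP2 at 0.35 and PARG, the enzyme that removes PAR chains, at 0.36. That share is close to the 5.69% of all tested genes. With the offsets 1 was called, and between 0 and 3 were when single libraries were left out: 0 without control olaparib library 1 or 2 or control DMSO library 1, and 1 without knockdown olaparib library 2 or control olaparib library 3.

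Of 50 genes of G2 and mitosis 19 were called, all higher in knockdown cells, with a median of 0.30. Over all tested genes 5.69% were called, and 2.84% were higher. Of the 19, 11 were strengthened, 6 gained, 1 lost and 1 reversed. Over the 50 genes, the median olaparib response was 0.57 in knockdown cells and 0.33 in control cells. The largest interaction was that of CENPE, a kinesin that moves chromosomes to the spindle equator. CENPE had 63.0, 67.2 and 84.5 CPM in knockdown cells under olaparib and 68.3, 63.6 and 66.9 CPM in knockdown cells under DMSO, against 42.6, 37.6 and 47.2 CPM in control cells under olaparib and 72.9, 85.4 and 59.4 CPM in control cells under DMSO. It fell in control cells and its libraries overlapped in knockdown cells (interaction 0.88, SE 0.198, adjusted p = 0.0287). BUB1B, a kinase of the spindle checkpoint, rose 1.42-fold in knockdown cells and had a fold of 1.04 in control cells, with an interaction of 0.44 (adjusted p = 0.00275). HMMR, a spindle protein, had an interaction of 0.52 (adjusted p = 0.037). These counts moved with the libraries used: 6 were called without control DMSO library 1, 7 without control olaparib library 1 or 2, 8 without knockdown olaparib library 2, 10 without control DMSO library 2, 11 without knockdown DMSO library 2, and up to 25 when another library was left out. With the GC and length offsets 18 were called, all higher, and the median was 0.19. In bulk RNA, more cells in a phase of the cycle and more RNA per cell cannot be told apart.

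The CENPE window also holds TGACGTCA, 114 bases before the start (RefSeq, GRCh38.p14, chr4:103198294-103198593, minus strand), and is printed beside that of DUSP1 because the olaparib responses of these genes differed between the arms in opposite directions. Capitals mark the motif.
CENPE: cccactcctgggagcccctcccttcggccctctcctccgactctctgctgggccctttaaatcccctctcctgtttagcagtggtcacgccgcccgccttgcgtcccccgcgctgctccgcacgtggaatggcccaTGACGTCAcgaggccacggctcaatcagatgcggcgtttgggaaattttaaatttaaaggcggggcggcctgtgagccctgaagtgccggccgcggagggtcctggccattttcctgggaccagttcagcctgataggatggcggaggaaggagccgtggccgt

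**Figure D3:**
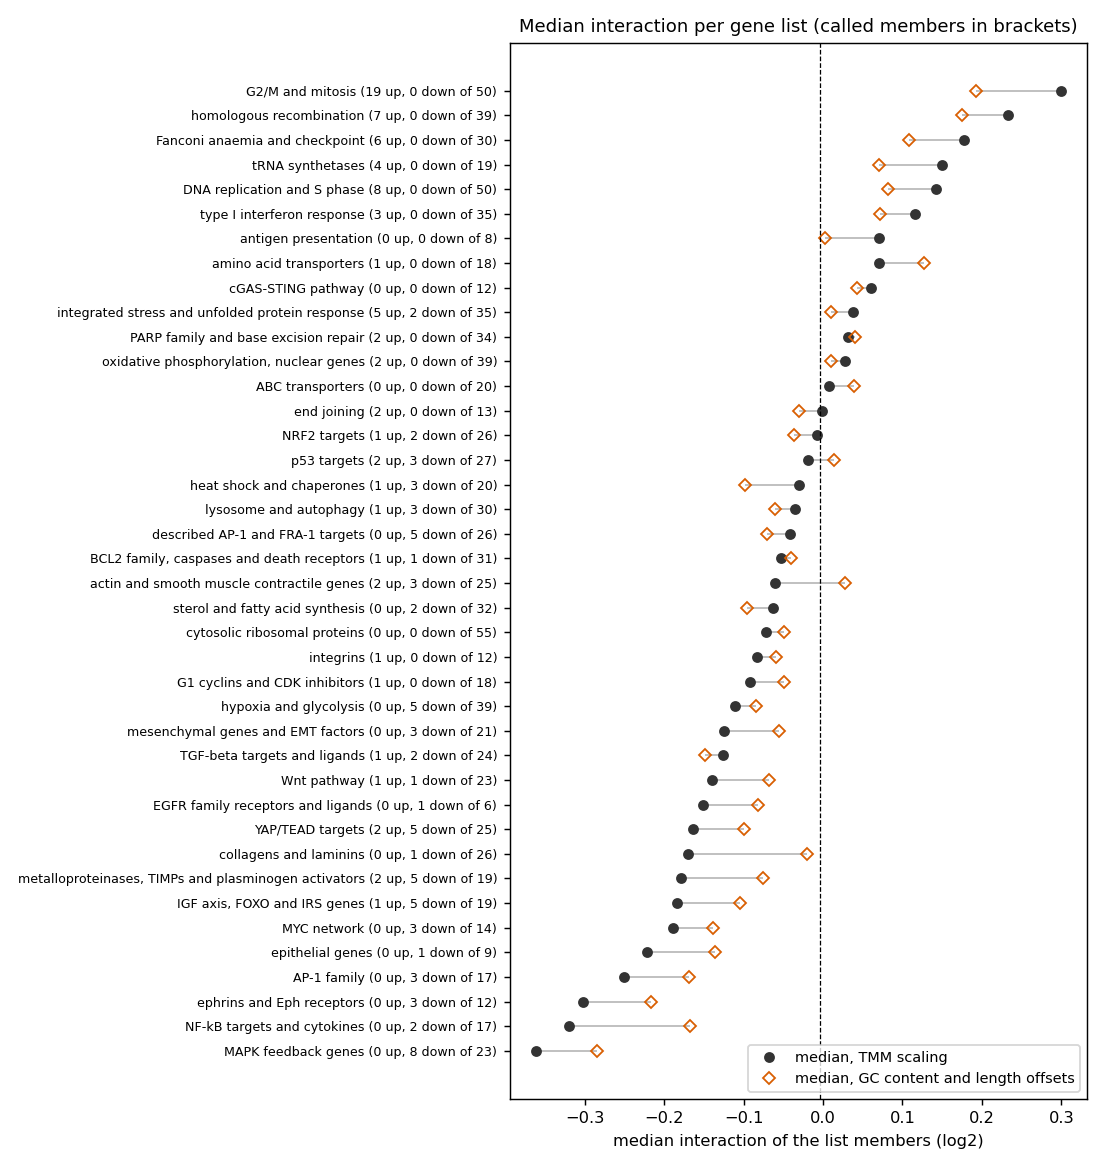
Median interaction (log2) of the tested members of each gene list, with TMM scaling (filled) and with GC content and length offsets (open), ordered by the filled value, with the number of members called higher and lower in brackets and the dashed line at the median of all tested genes. G2/M genes lie highest at 0.30 and MAPK feedback genes lowest at -0.36, and the offsets bring most lists closer to the line.

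Among interferon-induced genes, 3 of 35 were called, all higher in knockdown cells, and the list's median was 0.12. That share is close to the 5.69% of all tested genes. With the GC and length offsets 3 were higher and 1 lower, and the median was 0.07. IFIT2, an antiviral RNA-binding protein, had 44.6, 46.5 and 49.6 CPM in knockdown cells under olaparib and 30.2, 28.2 and 28.7 CPM in knockdown cells under DMSO, against 2.7, 3.15 and 3.12 CPM in control cells under olaparib and 2.79, 3.85 and 4.4 CPM in control cells under DMSO. It was thus high in every knockdown library, rose further with olaparib there, and overlapped between treatments in control cells (interaction 1.00, SE 0.174, adjusted p = 0.00279). IRF1, a transcription factor that interferon induces, fell in control cells and was not called in knockdown cells (interaction 0.35, adjusted p = 0.0404). Of 12 genes of the cGAS-STING pathway, which senses cytosolic DNA, none was called by edgeR, and the members' interactions ran from -0.41 to 0.30. The most abundant of them, IRF3 and ENPP1, had 95% intervals of -0.39 to -0.03 and -0.03 to 0.34.

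FAS, the death receptor and a p53 target, showed a strengthened rise. It had 99.8, 112 and 125 CPM in knockdown cells under olaparib and 42.5, 36.2 and 45.1 CPM in knockdown cells under DMSO, against 95.6, 91.0 and 102 CPM in control cells under olaparib and 54.1, 59.7 and 57.1 CPM in control cells under DMSO. The olaparib libraries of the arms overlapped and the DMSO libraries did not, with knockdown cells lower. FAS rose 2.71-fold in knockdown cells and 1.69-fold in control cells (interaction 0.68, SE 0.122, adjusted p = 0.00468). Its promoter window holds a match to the search pattern TGANTCA, read as TGAATCA, 242 bases before the start (RefSeq, GRCh38.p14, chr10:88990548-88990847, plus strand). It is printed to show such a match in a gene whose rise grew after the knockdown.
FAS: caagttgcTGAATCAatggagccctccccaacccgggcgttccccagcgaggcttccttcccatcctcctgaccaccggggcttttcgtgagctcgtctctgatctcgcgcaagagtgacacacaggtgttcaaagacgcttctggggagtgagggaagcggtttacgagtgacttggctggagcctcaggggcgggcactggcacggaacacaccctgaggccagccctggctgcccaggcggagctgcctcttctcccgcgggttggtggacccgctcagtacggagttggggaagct
ACTA2, smooth muscle actin, lies next to FAS in the genome, and since the strand setting of the counts was not given, reads from any shared stretch cannot be told apart. ACTA2 had 785, 809 and 847 CPM in knockdown cells under olaparib and 161, 151 and 161 CPM in knockdown cells under DMSO, against 1944, 2113 and 2097 CPM in control cells under olaparib and 445, 532 and 550 CPM in control cells under DMSO. It rose 5.16-fold in knockdown cells and 4.03-fold in control cells (interaction 0.36, adjusted p = 0.0303), and with the offsets the adjusted p was 0.0695. LIMA1, an actin-bundling protein, rose 2.19-fold in knockdown cells and 1.36-fold in control cells (interaction 0.69, SE 0.104, adjusted p = 0.000971). Of 25 actin and smooth muscle genes 2 were higher and 3 lower, beside 5.69% of all tested genes called. The list's median was -0.06 and turned to 0.03 with the offsets. Without control DMSO library 3, 1 was higher and 6 lower.

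Falls that grew in knockdown cells included TNC, the matrix protein tenascin C, with 78.8, 84.5 and 87.1 CPM in knockdown cells under olaparib and 146, 165 and 130 CPM in knockdown cells under DMSO, against 113, 114 and 108 CPM in control cells under olaparib and 128, 123 and 144 CPM in control cells under DMSO. Olaparib libraries were lower than DMSO libraries in both arms and further apart in knockdown cells (interaction -0.57, SE 0.109, adjusted p = 0.00645). SOX9, a transcription factor of progenitor cells, fell to 35.3, 30.2 and 30.5 CPM in knockdown cells under olaparib, against 46.3, 46.6 and 49.4 CPM in knockdown cells under DMSO. In control cells SOX9 had 74.0, 72.1 and 70.1 CPM under olaparib and 69.9, 69.9 and 66.0 CPM under DMSO, a difference that was not called. Its interaction was -0.65 (SE 0.0905, adjusted p = 0.000553).

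Genes of the integrated stress and unfolded protein response, which cells use when amino acids run short or proteins misfold, gave 7 calls among 35 members: 5 were higher and 2 lower in knockdown cells, and by class 2 were gained, 2 reversed, 1 strengthened, 1 lost and 1 weakened. SLC7A11, the cystine transporter that feeds glutathione synthesis, had 73.1, 80.5 and 92.8 CPM in knockdown cells under olaparib and 48.6, 54.5 and 59.3 CPM in knockdown cells under DMSO, against 58.3, 60.3 and 65.5 CPM in control cells under olaparib and 72.0, 72.9 and 68.5 CPM in control cells under DMSO. It rose in knockdown cells and fell in control cells without overlap in either arm (interaction 0.80, SE 0.117, adjusted p = 0.000954). CHAC1, which degrades glutathione, moved likewise, with a fold of 1.26 in knockdown cells and 0.759 in control cells (interaction 0.74, adjusted p = 0.00499). PSAT1, of serine synthesis, rose 1.34-fold in knockdown cells and had a fold of 0.963 in control cells. ASNS, asparagine synthetase, rose 1.61-fold in knockdown cells and 1.18-fold in control cells. The median over the list was 0.04, and over all tested genes 5.69% were called. With the offsets 10 were higher and 3 lower, and when single libraries were left out 4 to 6 were higher and 0 to 3 lower, with no lower call without knockdown olaparib library 2 or control olaparib library 1 or 2.

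Among the other reversed responses, ADM, the vasoactive peptide adrenomedullin, had 14.3, 12.7 and 10.9 CPM in knockdown cells under olaparib and 15.8, 17 and 16.1 CPM in knockdown cells under DMSO, against 25.6, 24.2 and 21.9 CPM in control cells under olaparib and 15.5, 15.3 and 16.6 CPM in control cells under DMSO. It fell in knockdown cells and rose in control cells (interaction -0.96, SE 0.132, adjusted p = 0.000471). ATAD5, which unloads the replication clamp PCNA, had 15.7, 17.7 and 20.4 CPM in knockdown cells under olaparib and 13.7, 14.1 and 14.0 CPM in knockdown cells under DMSO, against 9.13, 8.57 and 9.55 CPM in control cells under olaparib and 14.8, 15.9 and 11.4 CPM in control cells under DMSO. It rose in knockdown cells and fell in control cells (interaction 0.98, SE 0.162, adjusted p = 0.00199). Reversed responses were small: their median size was 0.25 in both arms, and none of the 53 reached 2-fold in either arm.

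The same 690 interactions can be read as a change of the knockdown effect by the drug. A knockdown effect was called in 4643 genes (38.3%) under olaparib and in 3624 genes (29.9%) in DMSO. Of the 690, 349 showed a knockdown effect under olaparib and none was called in DMSO, and 140 showed one in DMSO that was not called under olaparib. The effect was larger under olaparib with the same sign in 116 genes, smaller in 28 and of opposite sign in 54, and 3 genes were called in neither condition. CTGF and CSRP1 belonged to those whose arms lay close in DMSO, and TXNIP to those whose knockdown effect changed sign.

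The interaction followed the GC content of the transcripts. Over 5 bins of 2393 genes each, from the lowest to the highest GC content, the median interaction was 0.14, 0.07, 0.00318, -0.09 and -0.17. In the lowest bin 175 genes were called higher and 9 lower in knockdown cells, and in the highest bin 3 were called higher and 126 lower. The trend came with the olaparib response of knockdown cells, whose median was 0.09 in the lowest and -0.16 in the highest bin, against -0.06 and 0.01 in control cells. Single libraries differed in this respect. Set against the mean of its own group, the difference between high-GC and low-GC genes was 0.230 in knockdown olaparib library 1, 0.0265 in library 2 and -0.255 in library 3. Set against the mean of all libraries, this difference was 0.126, -0.0872 and -0.389 in knockdown olaparib libraries 1, 2 and 3. In knockdown DMSO libraries 1, 2 and 3 it was 0.0355, 0.273 and 0.112, and in control libraries it ran from -0.114 to 0.0858. The trend of the knockdown response thus rested unevenly on single libraries. With offsets for GC content and length in each library, 1021 of 11965 genes (8.53%) were called, 414 higher and 607 lower, and 523 of them were among the 690. By class, 126 of 146 weakened, 154 of 203 lost, 136 of 206 gained, 60 of 82 strengthened and 47 of 53 reversed genes were still called. In the lowest GC bin 101 genes were then higher and 157 lower, and in the highest bin 55 were higher and 90 lower. The offsets would also remove a drug response that runs with GC content, and the source of the trend was not tested.

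**Figure D4:**
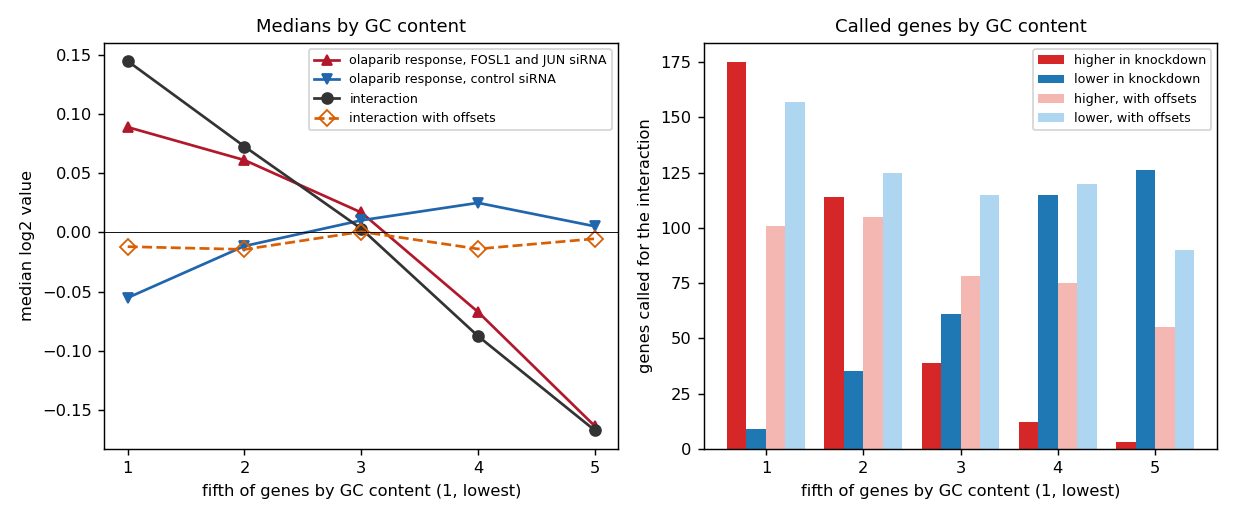
Left, the median olaparib response in each arm and the median interaction (log2), with and without offsets, in 5 equal bins of transcript GC content; right, the number of genes called higher and lower in knockdown cells per bin. The interaction is 0.14 in the lowest and -0.17 in the highest bin without offsets and lies between -0.014 and 0.000619 with them.

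The number of calls also depended on single libraries. When each of the 12 libraries was left out in turn, between 302 and 1129 genes were called. The count moved by more than 1.5 times without knockdown olaparib library 1 (1129) or 2 (343), knockdown DMSO library 2 (422), control olaparib library 1 (302) or 2 (322), and control DMSO library 1 (434) or 2 (349). No gene of the 690 changed sign in any of these fits. TXNIP, CTGF, DUSP1, CSRP1, GADD45A, FOSL1, ADM, IFIT2, LIMA1, SLC7A11 and ATAD5 were called under all 25 alternatives run for them. The least stable calls among the genes named here were those of SPRY1, kept under 11 of the 25, JUN (12), IRF1 (13) and RBMS3 (14). Next came FN1, HMMR, ACTA2 and CENPE (15 each), FANCL (16), PARG (17), and PARP2 and ALDOC (19 each). In the authors' deposited table, 879 of 12106 genes passed a false discovery rate of 0.05 for this contrast, 438 higher and 441 lower, and all 690 genes were among them with the same sign. Both results come from the same libraries, so this match is not a separate check of the calls.

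**Figure D5:**
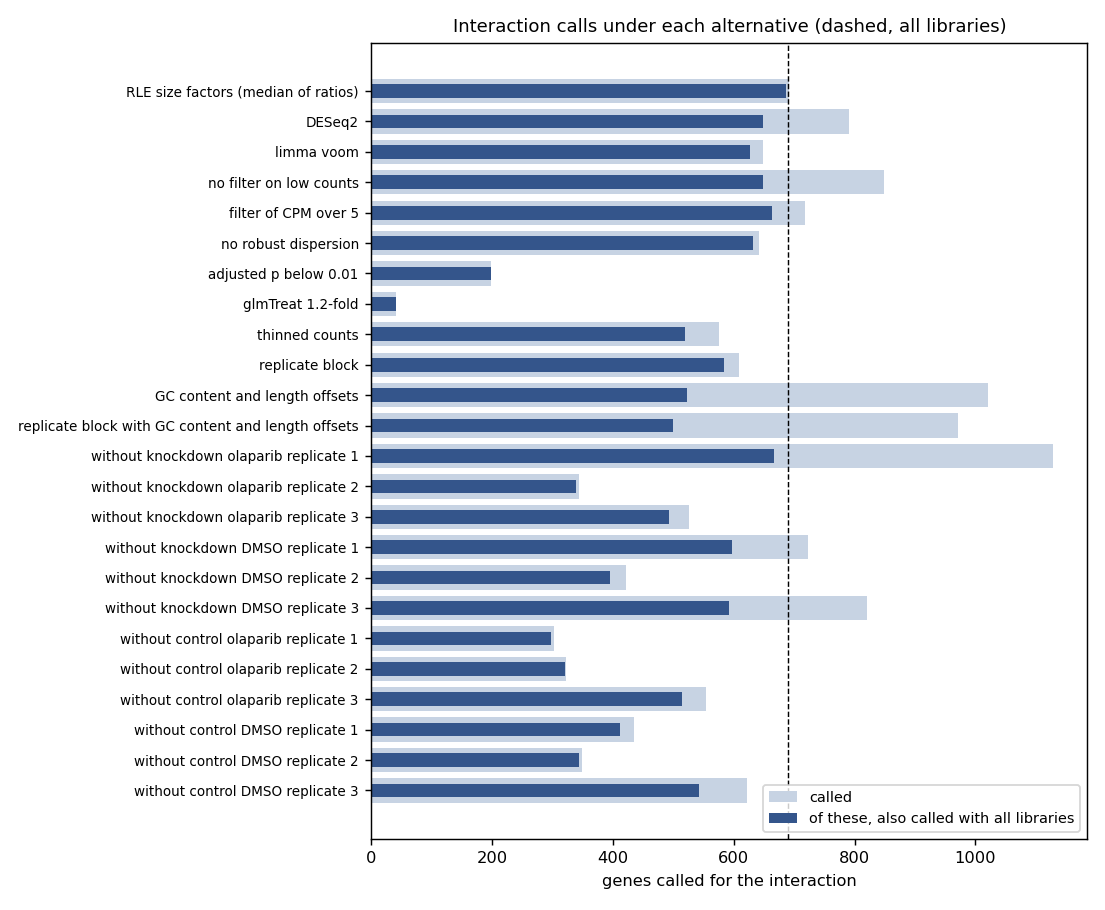
Bars give the number of genes called for the interaction under each alternative setting (light) and how many of those were also called with all libraries and the standard settings (dark), with the dashed line at 690. Counts run from 40 for a test against a 1.2-fold change to 1129 without knockdown olaparib replicate 1.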

How the data were processed

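RNA levels were measured by Illumina sequencing of total RNA in 12 libraries of the cell line BT549. The authors deposited whole-number counts per gene, with an Entrez identifier, symbol and length for each, per the file headers. They also deposited log2 fold changes and false discovery rates, the p-value column used here, for this contrast, per the file headers. The submitters' processing notes name bcl2fastq 2.20.0.422, a tool that converts base calls. How reads were aligned and counted, on which build and with which strand setting, is not given in the sources used here. Genes with near-identical copies (such as FAM72B) or overlapping neighbours are therefore uncertain.

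Counts were scaled by TMM and fitted in edgeR 4.0.16 (R 4.3.3) as 1 model of 4 groups with robust quasi-likelihood dispersion and 8 residual degrees of freedom. The biological coefficient of variation was 6.10%. A gene was tested with more than 1 CPM in at least 3 libraries. Levels are TMM-scaled CPM. P-values were adjusted by the Benjamini-Hochberg method over all 12122 tested genes, a call needed an adjusted p below 0.05, and each SE comes from the F statistic. Untested genes held 0.0697% to 0.0953% of a library's counts. Rows without a symbol numbered 51, of which 4 were tested. The fit was checked on simulated counts. No pair of libraries matched within sampling noise.

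GC content came from GENCODE v29 transcripts by Entrez identifier, for 11965 (98.7%) of the tested genes. The offsets were splines with 5 degrees of freedom in GC content and length per library. Promoter windows are RefSeq's (GRCh38.p14), matched by Entrez identifier.

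The genes named are FOSL1 and JUN, the 4 largest interactions per class and direction with a mean log2 CPM of at least 3, and up to 4 called members per gene list; not all of these are described. CD68 was named after its values were seen. The members, classes and 44 gene lists were chosen with earlier results of these data known. Alternatives used DESeq2 1.42.0, limma 3.58.1 (voom), other filters, scalings and thresholds, a replicate block, thinned counts, and each library left out.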

Additional observations from a re-analysis of the deposited data

Results flagged for a closer look

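The interaction is a test of whether 2 groups differ in their drug response, and 690 genes passed it. Those in which the arms moved in opposite directions, each past the threshold, are listed here among the named genes. Lower in knockdown cells, with a rise in control cells and a fall in knockdown cells, were FOSL1 (interaction -1.14), BIRC3 (-1.05), an inhibitor of apoptosis, ADM (-0.96), RAB20 (-0.73), a small GTPase, SHROOM3 (-0.71), a regulator of apical constriction, LTBP1 (-0.49), which stores latent TGF-beta in the matrix, PFKFB3 (-0.43), an activator of glycolysis, HSPA8 (-0.36), a chaperone, PLAU (-0.35), the urokinase protease, and TIMP2 (-0.31), a metalloproteinase inhibitor.

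Higher in knockdown cells, with a fall in control cells and a rise in knockdown cells, were ATAD5 (0.98), SLC7A11 (0.80), CHAC1 (0.74), WDR92 (0.71), ORC6 (0.68), a subunit of the origin recognition complex, BRCA1 (0.59), KIF14 (0.54), a kinesin of cytokinesis, and FANCI (0.39), the partner of FANCD2. The olaparib and DMSO libraries of BIRC3 overlapped in knockdown cells, and those of KIF14 overlapped in control cells.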

How the results depend on the processing

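No gene of the 690 changed sign in any alternative fixed at the start; 2 did in an added one (offsets without knockdown olaparib library 1). RLE scaling gave 692 calls, DESeq2 790, limma voom 648, no filter 848, a filter of CPM over 5 718, no robust dispersion 641 and counts thinned to 13763179 per library 576. Of 117 named genes, 102 kept their call with the GC and length offsets, 111 in DESeq2 and 77 without control olaparib replicate 2.

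At an adjusted p below 0.01, 198 genes were called (82 higher, 116 lower; lost 58, weakened 61, gained 47, strengthened 17, reversed 15). Against a 1.2-fold change (glmTreat) 40 were called (9 higher, 31 lower; lost 6, weakened 21, gained 5, strengthened 2, reversed 6). Requiring responses of at least 0.3 log2 left 51 strengthened and 12 reversed and put 130 genes in neither arm. In neither arm stood 4 genes in DESeq2 and 4 without a filter. With the offsets 607 were lower, 290 weakened and 158 strengthened. Added after seeing the data, the offsets without knockdown olaparib replicate 1 gave 522 lower, 235 weakened and 138 strengthened, without replicate 2 122 gained, and without replicate 3 229 weakened and 149 strengthened.

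Leaving out each library in turn gave 302 to 1129 calls, 134 to 524 higher and 168 to 605 lower, with 68 to 365 lost, 74 to 159 weakened, 81 to 379 gained, 35 to 146 strengthened, 33 to 77 reversed and 0 to 3 in neither arm.

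Replicate numbers did not pair the libraries: over 18 same-numbered pairs the correlation of deviations ran from -0.269 to 0.196, and 1 of 12 libraries correlated best with its own number. With the replicate block 609 genes were called, 583 of them among the 690. The block with the offsets gave 971 calls, 583 lower, 276 weakened and 160 strengthened.

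Why counts moved with a left-out library or the offsets was not tested. Depth and the spread between libraries together set the precision: the median 95% half-width of an interaction was 0.243 log2 units, and the smallest called interaction was 0.20.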

Other observations

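Several further gene groups were counted in the same way, beside 5.69% of all tested genes called. Of 19 tRNA synthetases, which charge tRNAs with amino acids, 4 were higher in knockdown cells and none was lower, with a median interaction of 0.15 that was 0.07 with the GC and length offsets. IARS, the isoleucine enzyme, had 554, 582 and 630 CPM in knockdown cells under olaparib and 564, 560 and 550 CPM in knockdown cells under DMSO, against 506, 504 and 514 CPM in control cells under olaparib and 655, 627 and 628 CPM in control cells under DMSO. It fell in control cells alone (interaction 0.40, adjusted p = 0.0017). The synthetase count was 2 without knockdown olaparib library 2, control olaparib library 1 or 2, or control DMSO library 1. Of 39 hypoxia and glycolysis genes 5 were lower in knockdown cells, among them ALDOC, an aldolase, whose fall grew to a fold of 0.522 in knockdown cells, against 0.644 in control cells. Of the 39, 3 were lower without control olaparib library 2, and with the offsets 7 were lower and 2 higher. Of 14 genes of the MYC network 3 were lower, and MYC itself rose 2.23-fold in knockdown cells and 2.93-fold in control cells (interaction -0.39, adjusted p = 0.00355).

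HMOX1, the heme oxygenase and a target of NRF2, had 417, 403 and 380 CPM in knockdown cells under olaparib and 308, 311 and 304 CPM in knockdown cells under DMSO, against 839, 818 and 841 CPM in control cells under olaparib and 453, 401 and 437 CPM in control cells under DMSO. Olaparib libraries were higher in both arms, and the rise was weakened in knockdown cells (interaction -0.57, SE 0.069, adjusted p = 0.000123). NRG1, a ligand of ERBB3, rose 1.15-fold in knockdown cells and 1.82-fold in control cells (interaction -0.67, adjusted p = 0.00013). NPC1, the lysosomal cholesterol exporter, rose 1.78-fold in knockdown cells and 2.82-fold in control cells (interaction -0.67, adjusted p = 0.000392). HSP90AA1, the inducible HSP90, rose 1.65-fold in knockdown cells and 1.29-fold in control cells (interaction 0.35, adjusted p = 0.00857), whereas HSPA8 fell in knockdown cells and rose in control cells. LINC00707, a long non-coding RNA, had 55.3, 59.0 and 57.5 CPM in knockdown cells under olaparib and 33.0, 33.0 and 30.0 CPM in knockdown cells under DMSO, against 81.6, 74.9 and 81.6 CPM in control cells under olaparib and 78.0, 74.8 and 69.9 CPM in control cells under DMSO. Its libraries overlapped between treatments in control cells (interaction 0.75, adjusted p = 0.00011). Of 55 cytosolic ribosomal protein genes none was called by edgeR, and their interactions ran from -0.29 to 0.14.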
